A study of Mus musculus with 8 samples.

Results

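The nuclear genes of oxidative phosphorylation were compared between normal and leukaemic stem and progenitor cells of mouse bone marrow. Members were all genes with a single annotated symbol beginning with Nduf, Sdha to Sdhd, Uqcr, Cox and a digit, or Atp5, together with Cyc1 and Cycs. This gave 95 of the 12393 genes measured: 33 complex I subunits and 5 complex I assembly factors, 4 complex II subunits and 3 assembly factors, 9 complex III subunits with Cyc1, cytochrome c itself, 17 complex IV subunits and 6 assembly factors, and 17 genes of complex V. Ndufa4, whose protein is now counted with complex IV, was placed there, and Ndufb4, Ndufa11, Ndufs6 and Cox14 were left out because their probe sets carried several symbols.

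The normal cells were wild-type LSK cells, the marrow fraction without lineage markers and with Sca1 and Kit, sorted from C57/BL6 mice aged 12 weeks. The leukaemic cells were sorted by GFP together with those markers, as leukaemia-initiating cells (LICs) of mice given a retroviral chronic myeloid leukaemia (CML), 14 days after bone marrow transplantation. They were labelled with the same strain and age, and were either wild type (WT) or lacked Ezh2 (Ezh2 KO), the methyltransferase of Polycomb repressive complex 2. LSK cells and WT LICs had 3 arrays each and Ezh2 KO LICs had 2, labelled as biological repeats. The Cre or other means of deletion, any pooling of animals, and whether the repeats came from separate animals are not stated in the labels, so p-values measure the spread between these arrays.

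The respiratory chain passes electrons from NADH (through complex I) or succinate (through complex II) to coenzyme Q, then through complex III and cytochrome c to oxygen at complex IV, and ATP synthase (complex V) uses the proton gradient that results. A small core of subunits is encoded in mitochondrial DNA, and the remaining subunits and all assembly factors are nuclear. Normal stem cells are known for relying little on respiration while at rest, and increase it when they divide and differentiate.

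Nuclear respiratory genes are known for promoters with sites for NRF1, for ETS factors such as GABP, for YY1 and for CREB, so these were looked for where the table of promoters had an entry. The RefSeq table (GRCm38.p6, 250 bases before to 50 after the start) held 84 windows for 78 of the 95 members, and the other 17, among them Cyc1, Uqcrq and Cox4i2, had none. Both strands were searched for these 4 motifs and the TATA box, as spelled out below, and no matches of different motifs overlapped. Shown are the windows of Cycs, Ndufb1, Ndufb6 and Sdhd, whose levels are described below, with matches in capitals and the remainder in lower case.
Cycs, chr6:50566520-50566819, minus strand: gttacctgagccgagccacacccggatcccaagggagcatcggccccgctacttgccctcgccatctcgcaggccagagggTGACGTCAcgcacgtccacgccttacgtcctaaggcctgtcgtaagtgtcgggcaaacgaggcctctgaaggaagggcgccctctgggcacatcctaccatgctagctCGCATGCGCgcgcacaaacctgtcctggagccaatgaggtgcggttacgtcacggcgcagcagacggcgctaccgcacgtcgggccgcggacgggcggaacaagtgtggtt
Ndufb1, chr12:101975689-101975988, minus strand: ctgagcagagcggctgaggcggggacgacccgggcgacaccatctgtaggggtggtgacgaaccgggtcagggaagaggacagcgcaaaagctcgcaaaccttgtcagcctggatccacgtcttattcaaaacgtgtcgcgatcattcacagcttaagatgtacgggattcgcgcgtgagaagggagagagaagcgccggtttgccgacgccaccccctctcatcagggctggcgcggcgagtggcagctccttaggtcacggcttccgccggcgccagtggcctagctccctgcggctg
Ndufb6, chr4:40279372-40279671, minus strand: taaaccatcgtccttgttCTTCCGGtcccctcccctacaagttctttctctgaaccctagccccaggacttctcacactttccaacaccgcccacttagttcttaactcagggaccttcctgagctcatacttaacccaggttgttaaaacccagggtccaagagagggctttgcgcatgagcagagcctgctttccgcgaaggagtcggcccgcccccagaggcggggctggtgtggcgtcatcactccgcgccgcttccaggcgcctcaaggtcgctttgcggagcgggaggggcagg
Sdhd, chr9:50603800-50604099, minus strand: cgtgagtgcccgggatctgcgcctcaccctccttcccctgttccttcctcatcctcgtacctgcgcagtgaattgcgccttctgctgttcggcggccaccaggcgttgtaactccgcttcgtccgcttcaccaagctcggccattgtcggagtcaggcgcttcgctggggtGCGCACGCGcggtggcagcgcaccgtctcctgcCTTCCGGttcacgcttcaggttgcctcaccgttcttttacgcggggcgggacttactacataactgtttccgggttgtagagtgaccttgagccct
In Cycs the NRF1 match began at base -61 from the start and the CREB match at -169. In Sdhd the NRF1 match began at -79 and the ETS match at -46, and in Ndufb6 an ETS match began at -232. The Ndufb1 window held none of the 5 motifs.

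The NRF1 motif, searched as GCGCANGCG, was found in 21 of the 78 members with a window (26.9%), among them Sdha, Cox6a1 and Uqcrc1, against 12.5% of the 9887 tested genes with a window and 6.25% of all 32851 windows. The ETS motif, searched as CCGGAAG, was found in 23 members (29.5%), including Sdhb, Ndufaf1 and Cox8a, against 16.3% of tested genes and 8.86% of all windows. Matches to YY1, searched as AAGATGG, were in 11 members (14.1% against 7.86% of tested genes and 6.34% of windows). The CREB motif, searched as TGACGTCA, was found in 4 (5.13% against 2.99% and 1.79%), namely Cycs, Ndufa10, Ndufb2 and Uqcrfs1. The TATA box, searched as TATAAA, was found in 7 members (8.97% against 11.9% and 13.6%). A match is a description of letters and not of a bound site. Members with an NRF1 match had a median WT LIC minus LSK difference of 0.14 on the log2 scale, and those without one 0.21. The medians with and without a match were 0.24 and 0.17 for ETS, 0.20 and 0.20 for YY1, 0.47 and 0.19 for CREB, and 0.25 and 0.20 for the TATA box. No test compared them.

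Values were intensities on the log2 scale, and a probe set's level is not compared with another's. The median member was at 11.12, against a background of 4.01 set by 27 unspiked bacterial control probe sets, and only Cox8b and Cox8c had a group mean at or under that background. In bulk samples such as these, fewer cells of a type and less RNA per cell cannot be told apart. Of the gate's markers only Kit was measured, at 10.90 to 11.05 in LSK cells, 9.69 to 9.81 in WT LICs and 9.99 and 10.35 in Ezh2 KO LICs. Ezh2 was at 10.77 to 11.07 in LSK cells, 11.26 to 11.44 in WT LICs, and 8.94 and 9.55 in Ezh2 KO LICs, where it fell by 2.10 against WT LICs (SE 0.21, limma adjusted p = 0.00985).

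Libraries differed in other transcripts as well. Summed erythroid markers (6 of 8 measured) were at 11.01 to 11.49 in LSK cells, at 12.64, 11.65 and 7.35 in WT LICs 1 to 3, and at 9.61 and 8.74 in Ezh2 KO LICs, with Hba-a1 under background everywhere. Summed B cell markers (6 of 7 measured) were at 8.75 to 10.16 in LSK cells and WT LICs and at 12.74 and 11.98 in Ezh2 KO LICs, with Pax5 under background. Summed antibody-secreting cell markers (all 6 measured) were at 13.17 to 13.60 in LSK cells and 10.26 to 10.89 in LICs. Xist was at 12.45 to 12.69 in LSK cells, at 4.35 in WT LIC 3 and at 10.68 to 11.18 in the other LICs, while the Y-linked Eif2s3y was under background in LSK cells and at 9.21 to 9.80 in every LIC array. Sex, transplantation and leukaemia therefore cannot be told apart in comparisons with LSK cells.

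Taken over all 95 members, most were slightly brighter in WT LICs than in LSK cells, and the fitted difference was under 2-fold for all but Cox4i2. Relative to each gene's LSK mean, the median member stood at -0.02, 0.04 and -0.01 on the LSK arrays, at 0.31, 0.17 and 0.12 on WT LICs 1 to 3, and at 0.19 and -0.01 on Ezh2 KO LICs 1 and 2. All WT LIC arrays were above all LSK arrays, while Ezh2 KO LIC 2 lay within the LSK range. The number of members above their LSK mean was 84, 70 and 64 on the WT LIC arrays and 73 and 46 on the Ezh2 KO arrays. Over all genes tested, the array medians stayed between -0.04 and 0.03.

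**Figure D1:**
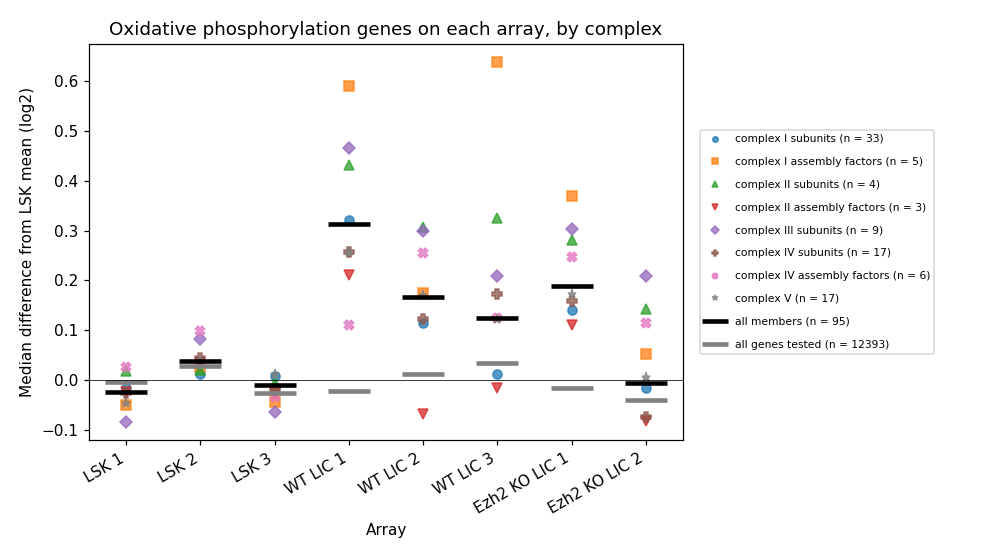
Median log2 difference from the LSK mean on each of the 8 arrays, for each class of member except cytochrome c (coloured marks), for all 95 members (black bars) and for all 12393 genes tested (grey bars); the LSK arrays define their own mean. The WT LIC black bars stand at 0.31, 0.17 and 0.12, and the bar of Ezh2 KO LIC 2 stands at -0.01.

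The order of the member medians among WT LICs was also the order of the summed erythroid markers, highest on array 1 and lowest on array 3. The 2 orders also matched within LSK cells and within Ezh2 KO LICs, but not between all groups. Erythroid markers on WT LIC 3 (7.35) and Ezh2 KO LIC 1 (9.61) lay below all LSK arrays (11.01 to 11.49). The member medians of these arrays, 0.12 and 0.19, lay above all LSK arrays (-0.02 to 0.04). Without WT LIC 1 the members' median difference from LSK cells was 0.16, and without WT LIC 3 it was 0.24. Summed markers of dividing cells (6 of 7 measured, all above background) were at 12.48 to 12.64 in LSK cells, 13.09 to 13.32 in WT LICs and 12.95 on both Ezh2 KO arrays. The part of dividing or erythroid cells in the members' levels was not tested.

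In WT LICs against LSK cells, 2 members rose, Cyc1 and Ndufb1, and none fell, by limma with p adjusted over all genes and a threshold of 0.05. Across all genes 1.27% rose and 2.15% fell by this rule, so the members' share called was near the background. At an unadjusted p under 0.05, 18 members were higher (9.33% of all genes) and 1 was lower (11.2% of all genes). The arrays of the groups did not overlap for 32 members that were higher in WT LICs (13.5% of all genes) and for 2 that were lower (13.2% of all genes), Cox7a2l and Ndufa4. The fitted difference was above 0 for 78 of the 95 members (82.1%), against 52.2% of all genes, with a median of 0.20 against 0.02. The median member difference kept its sign under every scaling, at 0.15 to 0.31. The median of all genes moved to 0.13 with each array centred on its median, where the members stood at 0.31 and 5 of them (5.26%) were called, against 4.0% of all genes.

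Class medians were all above 0, at 0.15 for complex I subunits, 0.52 for complex I assembly factors, 0.33 for complex II subunits, 0.04 for complex II assembly factors, 0.34 for complex III, 0.91 for cytochrome c (1 gene), 0.15 for complex IV subunits, 0.27 for complex IV assembly factors and 0.20 for complex V. Without WT LIC 1 the complex I subunit median was 0.0415, and that of the complex II assembly factors turned to -0.0426. No test compared the classes. Members under 10 in brightness had a median of 0.25, against 0.01 for other genes of that brightness. Those between 10 and 11 had 0.34 against 0.03, those between 11 and 12 had 0.13 against 0.04, and those above 12 had 0.17 against 0.02. The 95% interval of 79 members lay within a 2-fold change either way.

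**Figure D2:**
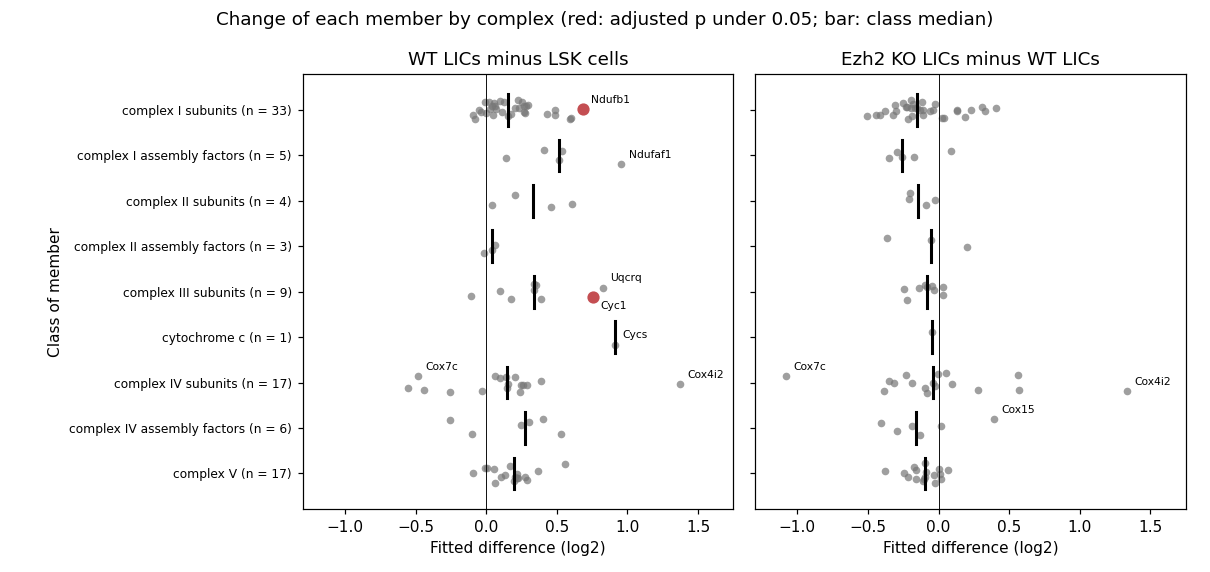
Fitted log2 difference of each member by class, WT LICs minus LSK cells on the left and Ezh2 KO minus WT LICs on the right; points are genes, black bars class medians and red points the members called. Most points on the left lie above 0 and only Cyc1 and Ndufb1 are red, and on the right no point is red and Cox4i2 (1.33) and Cox7c (-1.08) lie farthest out.

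At complex III and cytochrome c, 1 gene passed the test and 2 lay just outside it. Cyc1, the cytochrome c1 haem subunit of complex III, was at 9.30, 9.64 and 9.43 in LSK cells, at 10.35, 10.14 and 10.15 in WT LICs, and at 10.24 and 10.12 in Ezh2 KO LICs. All 5 LIC arrays lay above all LSK arrays. Cyc1 rose 1.69-fold in WT LICs (log2 0.76, SE 0.15, n = 3 and 3, 95% interval 0.41 to 1.10, limma adjusted p = 0.0385). This call rested on all arrays: leaving out any 1 of the 8 gave adjusted p between 0.0515 and 0.119.

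Cycs, the mobile carrier that takes electrons from complex III to complex IV and also triggers caspase activation when released, was at 10.82, 10.30 and 10.48 in LSK cells, 11.51, 11.42 and 11.39 in WT LICs, and 11.69 and 11.10 in Ezh2 KO LICs. The LIC arrays again did not overlap the LSK arrays, though the Ezh2 KO arrays differed widely from each other. The WT LIC difference of 0.91 (SE 0.20, 95% interval 0.44 to 1.39) missed the threshold in limma (adjusted p = 0.0577), and all 3 Cycs probe sets showed it, at 0.61 to 0.91. Uqcrq, a small subunit of complex III, was at 9.85, 9.74 and 9.64 in LSK cells, 10.58, 10.47 and 10.66 in WT LICs, and 10.60 and 10.05 in Ezh2 KO LICs. Its WT LIC difference of 0.82 (SE 0.17, limma adjusted p = 0.0502) also just missed the threshold. The other 3 Uqcrq probe sets lay near background, so this value rests on 1 probe set. With the mean of all its probe sets, those near background included, Uqcrq gave 0.0999 (limma adjusted p = 0.742). Cycs and Uqcrq were called with dim genes left out, with each array centred, with a trended prior or with array weights, and neither was called with any LSK or WT LIC array left out. The mean of its 3 probe sets gave Cycs 0.72, also called.

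Other complex III subunits differed less. Uqcr10 gave 0.39 (95% interval -0.00 to 0.78) and Uqcrh, the hinge protein, gave -0.11 (95% interval -0.42 to 0.21). In all, 8 of the 9 complex III genes were above 0 (52.2% of all genes were), and for 6 of them the WT LIC arrays all lay above the LSK arrays (13.5% of all genes).

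**Figure D3:**
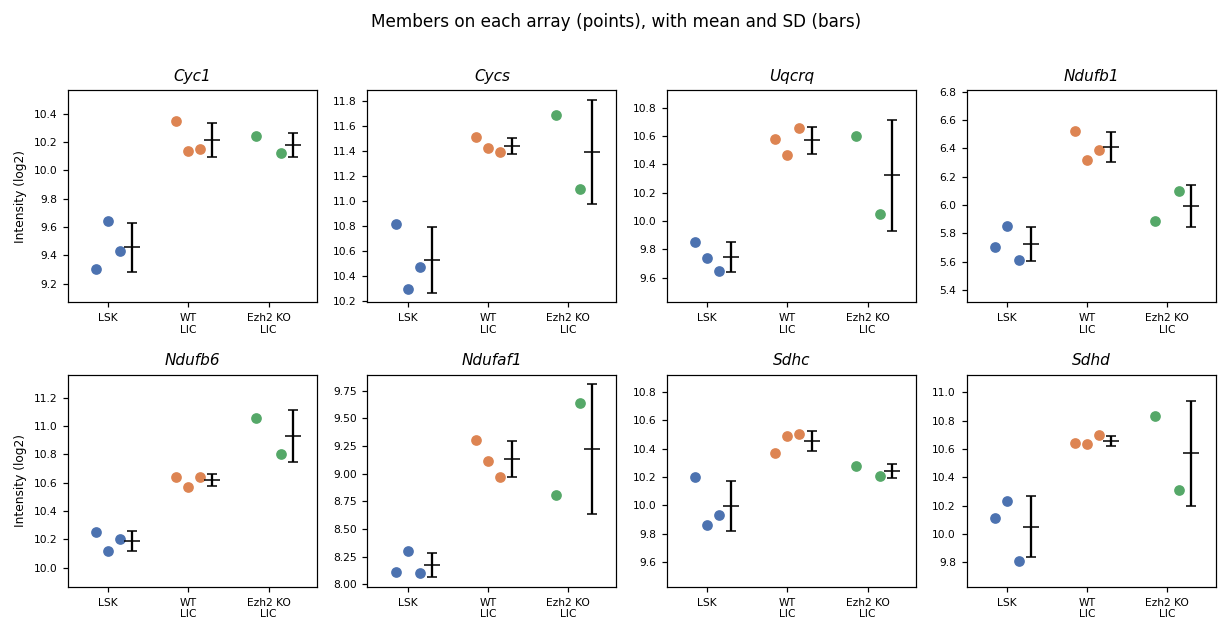
Log2 intensity of 8 members on every array (points: LSK cells blue, WT LICs orange, Ezh2 KO LICs green), with the mean and SD of each group as bars; each panel has its own scale. For Cyc1 and Cycs all LIC points lie above all LSK points, and the 2 Ezh2 KO points of Cycs, Uqcrq, Ndufaf1 and Sdhd lie far apart.

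At complex I, which oxidises NADH, 1 subunit passed the test. Ndufb1, an accessory subunit of the membrane arm, was at 5.70, 5.85 and 5.61 in LSK cells, 6.52, 6.32 and 6.39 in WT LICs, and 5.89 and 6.09 in Ezh2 KO LICs. Both LIC groups lay above LSK cells, with Ezh2 KO LICs between the others. Ndufb1 rose 1.61-fold in WT LICs (log2 0.69, SE 0.14, 95% interval 0.36 to 1.01, limma adjusted p = 0.0450). It has 1 probe set, which is dim, and leaving out any 1 of the 8 arrays gave adjusted p between 0.0640 and 0.131.

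Ndufb6, another membrane arm subunit, was at 10.25, 10.12 and 10.20 in LSK cells, 10.64, 10.57 and 10.64 in WT LICs, and 11.06 and 10.80 in Ezh2 KO LICs, so that the 3 groups did not overlap. Its WT LIC difference was 0.43 (SE 0.13, limma adjusted p = 0.120). Ndufs1, the largest subunit of the NADH-oxidising arm, gave 0.60 (adjusted p = 0.116), and Ndufb2 gave 0.59 (adjusted p = 0.104); both were chosen after their values were seen. The flavoprotein subunit Ndufv1 was at 10.84, 11.47 and 11.21 in LSK cells and 11.84, 11.34 and 10.95 in WT LICs, a difference of 0.21 with overlapping arrays that turned to -0.03 without WT LIC 1. Its partners Ndufv2 (means 11.17 and 11.29) and Ndufv3 (11.80 and 11.80) also overlapped. The lowest subunit was Ndufb11 at -0.10 (95% interval -0.39 to 0.20), and 27 of 33 were above 0.

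Among the 5 complex I assembly factors, Ndufaf1, which helps build the membrane arm, was at 8.11, 8.30 and 8.11 in LSK cells, 9.30, 9.12 and 8.97 in WT LICs, and 8.81 and 9.64 in Ezh2 KO LICs. All LIC arrays were above all LSK arrays. The WT LIC difference was 0.96 (SE 0.22, 95% interval 0.43 to 1.48, limma adjusted p = 0.0651). Ndufaf1 was called under some alternatives but not under most. Ndufaf5, which hydroxylates a core subunit, gave 0.53 (adjusted p = 0.194), and none of the 5 passed the test in the main fit.

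Complex II, succinate dehydrogenase, is entirely nuclear and is shared with the citric acid cycle. None of its 4 subunit genes passed the test. Sdhd, a membrane anchor, was at 10.11, 10.23 and 9.81 in LSK cells, 10.64, 10.63 and 10.70 in WT LICs, and 10.83 and 10.31 in Ezh2 KO LICs. Its difference was 0.61 (SE 0.18, 95% interval 0.18 to 1.04, limma adjusted p = 0.121), with no overlap between WT LICs and LSK cells, and its second probe set gave 0.22.

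Sdhc, the other anchor, was at 10.20, 9.86 and 9.93 in LSK cells, 10.37, 10.49 and 10.50 in WT LICs, and 10.28 and 10.21 in Ezh2 KO LICs, a WT LIC difference of 0.46 (limma adjusted p = 0.123). The arrays again did not overlap between WT LICs and LSK cells. The flavoprotein Sdha gave 0.04 (95% interval -0.29 to 0.38), whose sign turned under cyclic loess, while its second probe set gave 0.33. The iron-sulphur subunit Sdhb gave 0.21 (95% interval -0.18 to 0.59). The assembly factors Sdhaf1, Sdhaf2 and Sdhaf4 had WT LIC means within 0.07 of their LSK means.

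Complex IV, cytochrome c oxidase, has tissue isoforms of several subunits, and none of its 17 subunit genes passed the test in WT LICs against LSK cells. Cox4i2, the isoform of subunit 4 known from lung and from low oxygen, was at 5.08, 5.84 and 4.45 in LSK cells, 6.20, 6.41 and 6.86 in WT LICs, and 7.69 and 7.96 in Ezh2 KO LICs. The 3 groups did not overlap. The WT LIC difference of 1.37 (SE 0.35, 95% interval 0.55 to 2.19) did not pass the test in limma (adjusted p = 0.0817). It passed under few of the alternatives. The common form Cox4i1 was at 11.75 to 11.88 in LSK cells, 11.79 to 12.03 in WT LICs, and 11.77 and 11.97 in Ezh2 KO LICs, a WT LIC difference of 0.10 (95% interval -0.21 to 0.41).

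The protein of Cox7a2l is known for joining complexes III and IV into supercomplexes. Neither the protein nor supercomplexes were measured here, so whether it does so in these C57/BL6 cells is not shown. Cox7a2l differed in the opposite direction to most members. It was at 12.09, 12.21 and 12.15 in LSK cells, 11.61, 11.72 and 11.82 in WT LICs, and 11.80 and 11.82 in Ezh2 KO LICs. All LIC arrays lay below all LSK arrays, and all 3 probe sets agreed in sign. The WT LIC difference of -0.44 (SE 0.12, 95% interval -0.73 to -0.15) did not pass the test in limma (adjusted p = 0.103), but was called with a trended prior.

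Ndufa4 was at 11.89, 11.87 and 11.75 in LSK cells, 11.67, 11.43 and 11.66 in WT LICs, and 11.75 and 11.53 in Ezh2 KO LICs, a WT LIC difference of -0.25 (adjusted p = 0.358). Of the common isoforms, Cox6a1 gave 0.14, Cox6b1 0.15, Cox7a2 0.20 and Cox8a 0.24, with adjusted p of 0.430 to 0.648 in limma; the arrays of Cox6a1 and Cox7a2 did not overlap between WT LICs and LSK cells. Cox5a, chosen after its values were seen, gave 0.39 (adjusted p = 0.156). Among the alternative isoforms, Cox6a2 spread from 5.42 to 8.13 within WT LICs alone, Cox7a1 lay between 3.50 and 5.69 on all arrays, and Cox8c was at background. Cox6b2, a testis form, was at 10.39, 9.86 and 8.24 in WT LICs against 9.88 to 10.16 in LSK cells; its difference of -0.56 turned to 0.07 without WT LIC 3. Of the assembly factors, Cox16 gave 0.53 (adjusted p = 0.315; 0.237 without WT LIC 3) and Cox19 gave -0.26 (adjusted p = 0.621; -0.0367 without LSK array 2).

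**Figure D4:**
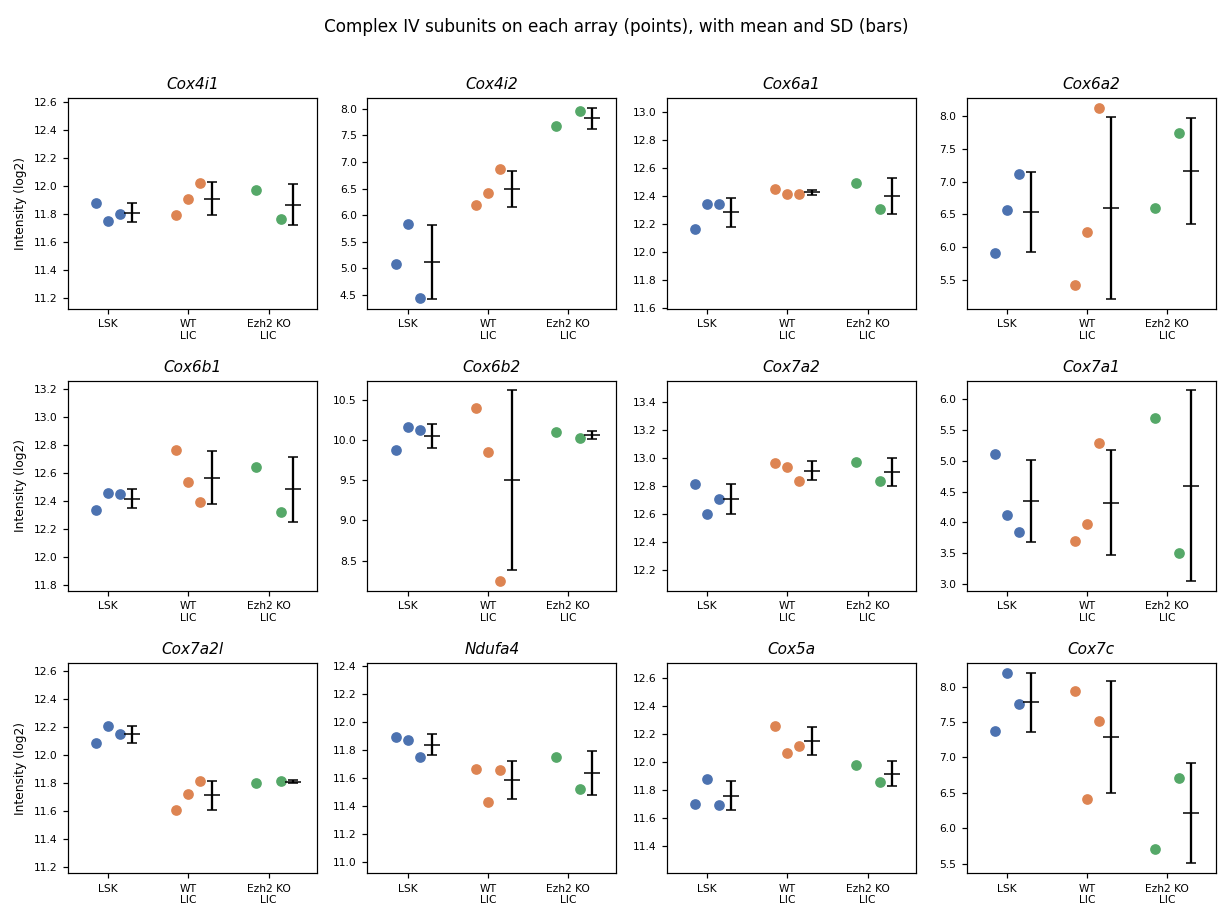
Log2 intensity of 12 complex IV subunit genes on every array (points: LSK cells blue, WT LICs orange, Ezh2 KO LICs green), with the mean and SD of each group as bars; each panel has its own scale. Cox4i2 steps from 4.45 to 5.84 in LSK cells to 7.69 and 7.96 in Ezh2 KO LICs, Cox7a2l is lower on all LIC arrays, and Cox6a2, Cox6b2 and Cox7a1 scatter within groups.

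At complex V, the ATP synthase, none of the 17 genes passed the test in WT LICs against LSK cells, and 15 were above 0. Atp5k, the e subunit that helps ATP synthase form dimers, was at 11.05, 11.63 and 11.21 in LSK cells, 12.05, 11.90 and 11.62 in WT LICs, and 12.01 and 11.64 in Ezh2 KO LICs. Its WT LIC difference was 0.56 (SE 0.21, limma adjusted p = 0.187), and LSK array 2 overlapped WT LIC 3. The epsilon subunit Atp5e had the lowest difference, at -0.09 (95% interval -0.40 to 0.22). The differences of Atp5e, Uqcrh and Ndufb11 turned above 0 with each array centred.

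Loss of Ezh2 within LICs gave no called member. In Ezh2 KO against WT LICs, 0 of 95 members rose (0.589% of all genes did) and 0 fell (0.0484% of all genes did) by limma at an adjusted p under 0.05. At an unadjusted p under 0.05, 2 members were higher, Cox4i2 and Cox15 (6.16% of all genes), and 2 were lower, Ndufb1 and Cox18 (4.97% of all genes). The arrays did not overlap for 5 members that were higher (13.2% of all genes) and 18 that were lower (16.6% of all genes). Fitted differences were above 0 for 25 of 95 members (26.3%), against 43.3% of all genes, and the median was -0.11 against -0.05. This median turned to 0.02 without Ezh2 KO LIC 2 and stood at -0.24 without Ezh2 KO LIC 1. Without WT LIC 1 it was -0.0511, beside -0.0570 for all genes, so the members' excess over all genes depends on that array too. For 88 members the 95% interval excluded a change of 2-fold or more either way; the exceptions were Cox4i2, Cox6a2, Cox6b2, Cox7a1, Cox7c, Ndufs7 and Sdhaf1.

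Class medians for Ezh2 KO against WT LICs were -0.15 for complex I subunits, -0.26 for complex I assembly factors, -0.14 for complex II subunits, -0.05 for complex II assembly factors, -0.08 for complex III, -0.04 for complex IV subunits, -0.16 for complex IV assembly factors and -0.10 for complex V. Without Ezh2 KO LIC 2 they turned to 0.0168 for complex I subunits, 0.0684 for complex II assembly factors, 0.0292 for complex III and 0.0609 for complex IV subunits, and without Ezh2 KO LIC 1 the complex IV subunit median was -0.246. Without WT LIC 1 the median was -0.0511 for complex I subunits and 0.126 for complex II assembly factors. Cox4i2, with the array values given above, had the largest difference, 1.33 (2.51-fold, SE 0.39, n = 2 and 3, 95% interval 0.41 to 2.25, limma adjusted p = 0.274). Cox7c, a small complex IV subunit, was at 7.37, 8.20 and 7.76 in LSK cells, 7.94, 6.42 and 7.52 in WT LICs, and 5.71 and 6.72 in Ezh2 KO LICs. WT LIC 2 lay below Ezh2 KO LIC 2, so the groups overlapped. The difference was -1.08 (SE 0.50, 95% interval -2.25 to 0.09, adjusted p = 0.476). The other Cox7c probe set had a mean of 4.40, near the background of 4.01, so this value rests on 1 probe set.

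The other members with the largest difference in their class showed the following. Cox15, which makes haem a for complex IV, was at 10.61, 10.90 and 10.81 in WT LICs and 11.13 and 11.19 in Ezh2 KO LICs, a difference of 0.39 (limma adjusted p = 0.429) seen in all 4 probe sets. Cox18, which inserts a core subunit into the membrane, was at 8.79, 8.73 and 8.64 in WT LICs and 8.45 and 8.18 in Ezh2 KO LICs, a difference of -0.40 (adjusted p = 0.429). Neither gene's arrays overlapped between these groups.

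Ndufb1 was also without overlap, at -0.42 (95% interval -0.78 to -0.06, limma adjusted p = 0.389). Ndufs7, an iron-sulphur subunit, gave -0.51 (adjusted p = 0.523), with WT LICs at 12.12, 11.86 and 11.30 and Ezh2 KO LICs at 11.25 and 11.26. Ndufa7 gave 0.41 (adjusted p = 0.559), with 1 of its 2 Ezh2 KO arrays, at 10.73, inside the WT LIC range. Atp5d, the delta subunit, gave -0.38 (adjusted p = 0.453) and Atp5mpl 0.07 (adjusted p = 0.903). Ndufaf5 gave -0.35, Sdhc -0.21, Sdhaf1 -0.37 and Sdhaf4 0.20, with adjusted p of 0.600 to 0.659. Cyc1 (-0.03, 95% interval -0.41 to 0.35), Cycs (-0.05, -0.58 to 0.48) and Uqcrq (-0.25, -0.70 to 0.21) had intervals that include 0 and do not reach a 2-fold change.

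Against LSK cells, Ezh2 KO LICs had 2 members that rose, Cox4i2 and Ndufb6 (1.61% of all genes rose), and none that fell (1.86% of all genes fell). This comparison shares its LSK arrays with that of WT LICs, and its Ezh2 KO arrays with the preceding one. At an unadjusted p under 0.05, 10 members were higher (8.84% of all genes) and 2 were lower (10.4% of all genes). Arrays did not overlap for 26 members that were higher (18.2% of all genes) and 11 that were lower (20.5% of all genes). Fitted differences were above 0 for 61 of 95 members (64.2%), against 47.2% of all genes, with a median of 0.11 against -0.02. The Ezh2 KO arrays differed here: the median was 0.19 without Ezh2 KO LIC 2 and -0.01 without Ezh2 KO LIC 1.

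Cox4i2 rose 6.50-fold in Ezh2 KO LICs over LSK cells (log2 2.70, SE 0.39, n = 2 and 3, 95% interval 1.78 to 3.62, limma adjusted p = 0.0188). It has 1 probe set, which was at 4.45 to 5.84 in LSK cells, near the background of 4.01, so the size of the fold is uncertain. The call was lost without LSK array 1 (adjusted p = 0.0531), Ezh2 KO LIC 1 (0.0771) or Ezh2 KO LIC 2 (0.106). Ndufb6 rose 1.67-fold (log2 0.74, SE 0.15, 95% interval 0.40 to 1.08, limma adjusted p = 0.0412), and its second probe set gave 0.79. Its call was lost with each array left out (adjusted p 0.0686 to 0.190) except WT LIC 3 (0.0467). Cyc1 gave 0.72 (adjusted p = 0.0589), Cycs 0.86 (0.0893) and Ndufaf1 1.05 (0.0697) in the same limma fit, beside 0.76, 0.91 and 0.96 for WT LICs over the same LSK arrays. Cox7c gave -1.56 (adjusted p = 0.142), with no overlap, and Cox7a2l gave -0.34 (adjusted p = 0.236).

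By the order of the group means, 39 members (41.1%) had LSK cells lowest, Ezh2 KO LICs between and WT LICs highest, against 18.9% of all genes. A further 20 members (21.1%, against 16.5%) had Ezh2 KO LICs lowest and WT LICs highest, and 19 (20.0%, against 16.8%) had Ezh2 KO LICs highest and LSK cells lowest, among them Cox4i2 and Ndufb6. The order of means carries no test. WT LICs against LSK cells and Ezh2 KO against WT LICs share the WT LIC arrays, so a high WT LIC array moves both. The dividing cell markers given above were in the same LSK, Ezh2 KO, WT order.

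Other genes of mitochondrial metabolism were described by lists in WT LICs against LSK cells. Over all genes the median there was 0.02, and 1.27% rose and 2.15% fell. Of 18 citric acid cycle genes measured, 1 rose and none fell (median 0.20): Idh3a, the catalytic subunit of NAD-dependent isocitrate dehydrogenase, by 0.83 (limma adjusted p = 0.0225), from 9.58, 9.68 and 9.70 to 10.60, 10.54 and 10.31. Of 25 respiratory assembly factors with other names, Ecsit, a complex I assembly factor also known from innate immune signalling, rose by 1.18 (adjusted p = 0.0225) and none fell (median 0.25). Of 74 mitochondrial ribosomal protein genes, Mrpl20 rose by 1.03 (adjusted p = 0.0385) and none fell (median 0.30). Coenzyme Q synthesis (9 genes, median 0.48), biogenesis regulators such as Nrf1, Gabpa and Tfam (19 genes, median 0.09) and mitochondrial carriers (12 genes, median 0.10) had no called gene.

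Of 15 glycolysis genes measured, 1 fell (2.15% of all genes did) and none rose (1.27% of all genes did) in WT LICs against LSK cells. Their median was 0.15. Ldhb, the lactate dehydrogenase subunit known for favouring pyruvate formation, was at 10.12, 10.49 and 10.45 in LSK cells, 6.84, 6.70 and 7.02 in WT LICs, and 8.70 and 8.90 in Ezh2 KO LICs. The 3 groups were widely separated. Ldhb fell by 3.50 in WT LICs against LSK cells (limma adjusted p = 0.000149) and rose by 1.95 in Ezh2 KO over WT LICs (adjusted p = 0.00895). It was the only called gene of these 7 lists in the latter comparison, where 0.589% of all genes rose. The other 14 glycolysis genes measured were not called in either.

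In Ezh2 KO LICs against LSK cells, Coq10a, a coenzyme Q binding protein, fell by 1.30 (limma adjusted p = 0.0400), Sirt3, the mitochondrial deacetylase, fell by 0.75 (adjusted p = 0.0433) and Ldhb fell by 1.55 (adjusted p = 0.00911). No gene of the citric acid cycle, assembly factor, carrier or mitochondrial ribosome lists was called there, where 1.61% of all genes rose and 1.86% fell. In Ezh2 KO against WT LICs the medians of the 7 lists were between -0.28 and -0.05, beside -0.05 for all genes.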

How the data were processed

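Expression was measured on Affymetrix 3′ arrays of RNA from sorted marrow cells, amplified by isothermal single-primer amplification and biotin-labelled, per the labels' protocols. Samples were sorted through the cytometer 2 times, per the series' design. The deposited values were linear intensity values from 1.94 to 19343; RMA is named in the submitters' processing notes without a version, and the sources used here give no later step. Log2 of each intensity was taken with no pseudocount. Of 22690 probe sets, 64 controls, 691 with several symbols and 1555 without a listed symbol were left out. Of 20380 with 1 symbol, 20351 matched RefSeq (GRCm38.p6) by gene number. Each gene took its brightest probe set by the mean of 8 arrays, which gave 12393 genes without a filter. The 95 members had 175 probe sets, and 45 had a single one. Where 49 members had several above background, 34 agreed in sign for WT LICs against LSK cells.

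All 3 groups entered 1 fit in limma 3.58.1, run in R 4.3.3 (lmFit, eBayes; 5 residual degrees of freedom; 2-sided; Benjamini-Hochberg over all genes; threshold 0.05), and the script was tested on simulated data. The smallest exact permutation p is 0.1 for 3 arrays against 3 and for 2 against 3, so no such test was run. Precision is limited by the number of arrays: members had a median SE of 0.16 for WT LICs minus LSK cells and of 0.18 for Ezh2 KO minus WT LICs. Members and lists were chosen with earlier results of these data known. Named were Cyc1, Cycs, Sdha to Sdhd, isoform sets, called members, the member with the highest and lowest difference in each class, and up to 2 called genes of each other list; a gene named beside these is marked as picked after seeing its values. Alternatives were a filter on dim genes (above the 40th percentile), 3 scalings, a trended robust prior, array weights, the compared groups alone, the mean of all probe sets, the replicate number as a block and each array left out. The sources used here give no scan date or other batch. Marker lists were summed as intensities and given as log2. Of 6 stem cell markers 4 were measured, with Mecom under background. Of 5 T cell markers 4 were measured, with 1 above background in LSK cells, 1 in WT LICs and 2 in Ezh2 KO LICs. Ranges over the 3 LSK, 3 WT LIC and 2 Ezh2 KO LIC arrays, in that order, were 11.15 to 11.51, 9.09 to 9.73 and 9.54 to 10.34 for stem cell markers, 10.39 to 11.19, 8.33 to 9.29 and 8.76 to 8.94 for megakaryocyte markers, 13.74 to 13.89, 14.16 to 14.38 and 13.27 to 14.16 for granulocyte markers, 12.26 to 12.58, 10.05 to 11.10 and 10.84 to 11.04 for monocyte markers, and 5.96 to 6.01, 5.91 to 6.10 and 5.99 for T cell markers. Plots were drawn with matplotlib 3.10.9.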

Additional observations from a re-analysis of the deposited data

How the results depend on the processing

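In Ezh2 KO against WT LICs the count of called members was 0 under all alternatives that kept both Ezh2 KO arrays. Over all genes, 0.202% to 1.18% were called in these fits. In WT LICs against LSK cells it was 2 (3.42% of all genes were called). It became 5 with dim genes left out (7.28%), with each array centred (4.0%) and with a trended robust prior (4.95%). Array weights gave 6 (7.40%), and leaving out each LSK or WT LIC array gave 0 or 1 (1.42% to 5.19%). In Ezh2 KO LICs against LSK cells it was 2 (3.47% of all genes). It became 4 with a trended robust prior (4.66%), 1 with only the groups compared (2.57%), and 0 to 2 with each LSK or WT LIC array left out (1.39% to 5.19%). With the replicate number as a block it was 0 in both comparisons with LSK cells (2.03% of all genes for WT and 1.19% for Ezh2 KO LICs). Whether equal numbers mark paired samples is not stated in the labels. Deviations of same-numbered arrays from their group means correlated at -0.05, -0.02 and -0.02 between LSK cells and WT LICs. Between WT and Ezh2 KO LICs they correlated at 0.145 and 0.0193. These values cannot decide the pairing, because the deviations within such small groups are bound to cancel. The block is therefore given only as an alternative and not as a paired analysis. The members' median in WT LICs against LSK cells was 0.31 with each array centred and 0.16 to 0.24 with each array left out. With each array left out it ran from -0.239 to 0.0168 in Ezh2 KO against WT LICs and from -0.00581 to 0.19 in Ezh2 KO LICs against LSK cells.

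Some differences turned sign under an alternative, and the cause was not tested. Not all of them were near 0. The main fit gave Cox6b2 -0.56 in WT LICs against LSK cells and Sdhaf1 -0.37 in Ezh2 KO against WT LICs. In WT LICs against LSK cells, centring gave Atp5e 0.016, Ndufb11 0.0125 and Uqcrh 0.0021, and cyclic loess gave Sdha -0.0029. With each array left out, Sdha ran from -0.0479 to 0.114, Ndufv1 from -0.0278 to 0.419 and Cox6b2 from -1.004 to 0.0725. In Ezh2 KO against WT LICs such ranges were -0.0927 to 0.0364 for Cyc1, -0.346 to 0.246 for Cycs, -0.522 to 0.0292 for Uqcrq, -0.799 to 0.0684 for Sdhaf1 and -0.0302 to 0.162 for Atp5mpl. The mean of all probe sets gave Cycs 0.0656 there. For Uqcrq it gave -0.275 in Ezh2 KO LICs against LSK cells, where the brightest Uqcrq probe set gave 0.58 and the others lay near background. Signal near background limits Cox8b, Cox8c and Cox7a1, and it limits Cox4i2 in LSK cells.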
